A study of Mus musculus with 8 samples.

Results

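H3.3-HA peaks were compared between wild-type (WT) and Hira-null mouse embryonic stem cells (mESCs) before differentiation, at day 0. The WT cells were the W9.5 line, and the Hira-null cells were Clone104, a single clone, so that genotype and cell line cannot be told apart. Both lines carried histone H3.3 with an HA tag, were kept undifferentiated on gelatin with LIF, and received no other treatment. Chromatin was cut by micrococcal nuclease without crosslinking and precipitated with an HA antibody from the 12AC5 hybridoma. The WT list held 22730 peaks and the Hira-null list 17706, together 40436 of the 75040 peaks of the series, whose remaining lists come from day 15 of cardiomyocyte differentiation. Each genotype had 1 ChIP library and 1 input library, so no comparison here has a replicate check, and no p-value was computed. The Hira gene itself, at chr16:18877130-18970402 in mm9, had no WT peak and 2 Hira-null-only peaks over 6.68 kb of its surroundings, and a peak list does not show whether a gene is deleted, so this does not check the genotype. Peaks were split by whether at least 1 bp was overlapped by a peak of the other genotype. WT-only peaks are WT peaks without a Hira-null peak, Hira-null-only peaks are the reverse, and the overlapping peaks of the WT and the Hira-null list are called WT shared and Hira-null shared.

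H3.3 is a histone H3 variant that is laid into chromatin outside DNA replication. HIRA, with UBN1, CABIN1 and ASF1A, forms the chaperone complex known for placing H3.3 over active genes and regulatory elements. Another complex, ATRX with DAXX, is known for placing H3.3 in heterochromatin, at telomeres and at endogenous retroviral repeats in mESCs. A peak list shows where enrichment passed the threshold of the peak caller and does not give the amount of H3.3 in a cell.

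In these lists, peaks found only in WT lay near and inside genes, in sequence that is mostly present once in the genome: in 57.8% of them, and in 8.82% of the Hira-null-only peaks, no sampled 30-base word of the central 1 kb occurred again in mm9. The same was true of 45.1% of windows tiled across the genome. Peaks found only in Hira-null cells were wider and lay mostly between genes, and 40% of them were centred on repeated sequence. For this measure 30-base words were taken every 50 bases across the central 1 kb of each peak, and the window was called repeated when at least 50% of its words occurred 10 or more times in mm9. Shared peaks resembled the Hira-null-only peaks in position and sequence. How much of the contrast between WT-only and the other peaks comes from single repeated sequences was not measured. The next lines show repeated sequences that were found in many peaks of these groups. Each is one copy from mm9 in its 60 bases of context, and the capitals mark the 30-base word that was counted. Words were taken in turn within a group, each being the one found in the most peaks that held none of the words taken before it, with words of low complexity skipped. A, B and C were taken in this way from Hira-null-only peaks, D, E and F from WT shared peaks, and G from WT-only peaks for contrast. The order in which words were taken is therefore not their order of frequency in the group overall. Words that overlapped a printed one were left out. From WT-only peaks only G is printed, which was taken after the most frequent word of that group.
Element A, chr16:62875774-62875833, plus strand: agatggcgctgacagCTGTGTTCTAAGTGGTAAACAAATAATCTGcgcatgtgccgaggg
Element B, chr2:181643399-181643458, plus strand: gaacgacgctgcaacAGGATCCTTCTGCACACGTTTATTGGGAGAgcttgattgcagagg
Element C, chr7:36313924-36313983, plus strand: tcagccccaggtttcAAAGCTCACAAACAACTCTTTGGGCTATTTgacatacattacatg
Element D, chr13:12952683-12952742, plus strand: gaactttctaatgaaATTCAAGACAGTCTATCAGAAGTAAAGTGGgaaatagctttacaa
Element E, chr8:121860701-121860760, plus strand: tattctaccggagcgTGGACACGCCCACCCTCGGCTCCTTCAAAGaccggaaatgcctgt
Element F, chr4:125286064-125286123, plus strand: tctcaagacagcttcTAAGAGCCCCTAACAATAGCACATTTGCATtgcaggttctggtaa
Element G, chr6:148903589-148903648, plus strand: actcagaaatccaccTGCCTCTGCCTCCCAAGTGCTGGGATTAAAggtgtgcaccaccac

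The copy of element A lay in an intron of Pros1, the gene of the anticoagulant protein S, that of C in an intron of Tdrd12, a Tudor-domain gene of the piRNA pathway, and that of F in an intron of Grik3, a kainate receptor subunit. The copies of B, D, E and G were in distal intergenic sequence. These words were picked because they were frequent in these peaks, so the counts that follow are a description. No repeat annotation was used, and the elements were given no family names. A word left out because it overlaps that of D lay at chr16:62876295-62876324, in the same peak as the printed copy of A. A and D can thus be parts of the same repeat, and A to F are not to be read as independent repeats.

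In the full widths of the peaks, element A was present in 2427 Hira-null-only peaks (20.4%), in 1025 Hira-null shared peaks (17.7%), in 356 WT shared peaks (5.74%) and in 5 WT-only peaks (0.03%). Element D was present in 967 WT shared peaks (15.6%), 1167 Hira-null shared peaks (20.1%), 1081 Hira-null-only peaks (9.09%) and 8 WT-only peaks (0.05%). Element E was in 390 WT shared peaks (6.28%), in 853 Hira-null-only peaks (7.17%) and in 0 of 16522 WT-only peaks. All of A to F were thus rare in WT-only peaks, where the highest count among them was 8. Element G was present in 311 WT-only peaks (1.88%), 104 Hira-null shared peaks (1.79%), 51 WT shared peaks (0.82%) and 96 Hira-null-only peaks (0.81%). Of the 4 words taken from WT-only peaks, the most frequent was in 320 of them (1.94%) and in 139 Hira-null shared peaks (2.39%).

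The same elements were then followed from the genome side, by asking where each exact copy in mm9 lay. WT peaks covered 1.07% of the genome and Hira-null peaks 1.25%. Of the 4946 copies of element A, 77.5% lay under a Hira-null peak and 8.49% under a WT peak. Of the 2922 copies of element D, 97.8% lay under a Hira-null peak and 48.2% under a WT peak. Of the 1534 copies of element E, 1526 (99.5%) lay under a Hira-null peak and 396 (25.8%) under a WT peak, and each of those 396 also lay under a Hira-null peak. Element C had 613 copies, with 79.3% under Hira-null and 16% under WT peaks, and element B had 1776, with 38.9% and 3.66%. Element F, with 373 copies, was the nearest to balance among A to F, at 82.0% under Hira-null and 59.0% under WT peaks. Element G had 31790 copies, of which 0.71% lay under a Hira-null peak and 1.41% under a WT peak. The most frequent word of the WT-only peaks, not printed, had 32669 copies, with 0.98% and 1.38%. Leaving out chromosomes 8 and 11, the shares under Hira-null and WT peaks were 77.3% and 7.96% for A, 97.7% and 48.4% for D, and 99.6% and 25.7% for E. For G they were 0.72% and 1.06%. For the most frequent word of the WT-only peaks they were 1.04% and 0.99%, so that its order turned round. Copies that are identical cannot be told apart by the reads inside them, and how the aligner placed reads with several equal matches is not given in the sources used here, so the copies are not independent observations.

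Copies of element A often came in pairs. For 3562 of the 4946 copies, another copy lay on the same strand 2 to 8 kb away, and 90.0% of these paired copies were under a Hira-null peak and 9.74% under a WT peak. Of the other 1384 copies, 45.4% were under a Hira-null peak and 5.28% under a WT peak. The share under Hira-null peaks was the higher for both kinds of copy. Element A was picked from Hira-null-only peaks, so this split is a description and not a separate check of a genotype difference.

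At day 15 most copies of each element lay outside the peak lists. The share of mm9 that the day 15 lists cover is not given here, so the following shares have no genome level beside them. Element A had 0.20% of its copies under a Hira-null day 15 peak and 0.02% under a WT day 15 peak. Element E had 0.13% of its copies under a Hira-null day 15 peak and none of its 1534 copies under a WT day 15 peak. Under a Hira-null day 15 peak lay 3.94% of the copies of B, 1.1% of D and 4.29% of F, against 0.11%, 0% and 0.27% under a WT one. For G these shares were 0.25% and 1.05%. Element C had the highest share, with 22.8% of copies under a Hira-null day 15 peak and 0.98% under a WT one.

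**Figure D1:**
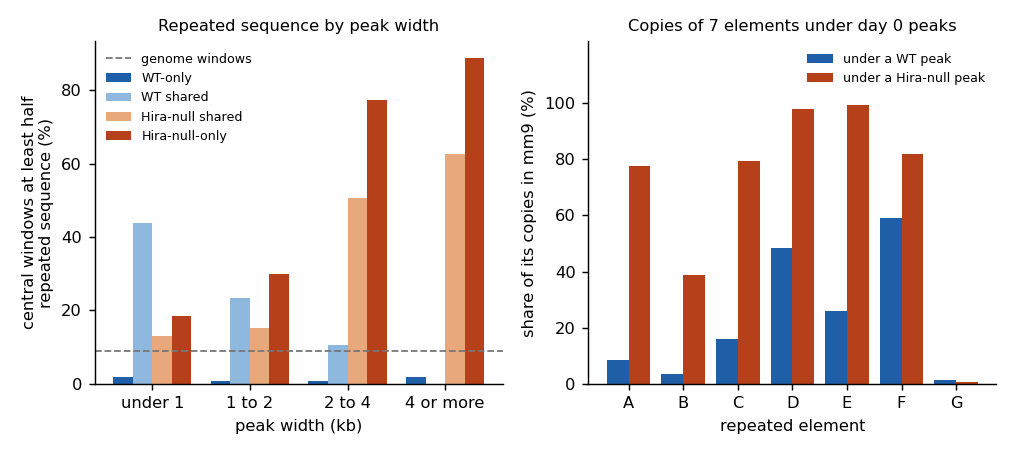
Left: share (%) of peaks whose central 1 kb window was at least 50% repeated sequence, by peak width in kb and peak group, with the share of genome windows as a dashed line. Right: share (%) of the mm9 copies of elements A to G that lay under a WT or a Hira-null day 0 peak; for A to F the Hira-null bar is the taller, for G both are under 2%.

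Of 22730 WT peaks, 16522 (72.7%, exact binomial 95% interval 72.1 to 73.3) had no Hira-null peak, and 6208 had one. Of 17706 Hira-null peaks, 11899 (67.2%, 66.5 to 67.9) had no WT peak, and 5807 had one. The intervals cover counting error over peaks only. Without chromosomes 8 and 11 the shares were 70.2% (69.5 to 70.8) of 18191 WT peaks and 68.5% (67.8 to 69.2) of 16066 Hira-null peaks. Counted in bases, WT peaks covered 28.5 Mb and Hira-null peaks 33.2 Mb, with 6.51 Mb in both, which was 22.9% of the WT and 19.6% of the Hira-null length. The Hira-null list thus had fewer peaks but covered more sequence. The order of the unshared shares was not stable. With peaks of a score of 100 or more in both lists, which are 34.3% of the WT and 59.3% of the Hira-null list, 73.9% of WT and 81.3% of Hira-null peaks were unshared. With at least 50% of a peak's length required to be covered, the shares were 73.8% and 82.2%, and with the same number of highest-scoring peaks from each list 71.3% and 72.8%.

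Sharing followed the peak score in both lists, and far more steeply in the Hira-null list. The score is the peak caller's own, 10 times the negative log10 of its p-value, with a lowest value of 50, and it grows with read depth, which is unknown for these libraries. With the Hira-null list cut into 5 equal parts by score, 85.0% of peaks in the lowest part had no WT peak, against 34.1% in the highest part. In the WT list the same shares were 77.2% and 66.0%. Sorted by width, the lists went opposite ways. In the narrowest of 5 equal parts of the Hira-null peaks 85.8% had no WT peak and in the widest 51.4%, whereas the shares in the WT list were 62.7% for the narrowest and 77.9% for the widest. Most unshared peaks had no peak of the other genotype within 10 kb, where 17.9% of WT-only and 27.8% of Hira-null-only peaks had one. A peak list does not show enrichment that stayed under the caller's threshold at the same place. The median distance to the nearest peak of the other genotype was 45.9 kb for WT-only and 39.1 kb for Hira-null-only peaks, and 2.54% and 4.85% of them lay within 1 kb of one.

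Hira-null peaks were the wider ones, above all where both lists had a peak. The median width was 1084 bp (95% interval 1076 to 1094) for WT-only peaks, 952 bp (940 to 962) for WT shared, 1984 bp (1952 to 2026) for Hira-null shared and 1344 bp (1328 to 1359) for Hira-null-only peaks. These medians were 1018, 926, 2047 and 1351 bp when chromosomes 8 and 11 were left out. The median of the Hira-null-only peaks was thus 260 bp above that of the WT-only peaks, or 333 bp without those chromosomes. Peaks of at least 2 kb made up 11.5% of WT-only, 8.86% of WT shared, 49.5% of Hira-null shared and 26.1% of Hira-null-only peaks. Without chromosomes 8 and 11 the WT-only share of such wide peaks was 6.77% and the Hira-null-only share 26.3%.

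**Figure D2:**
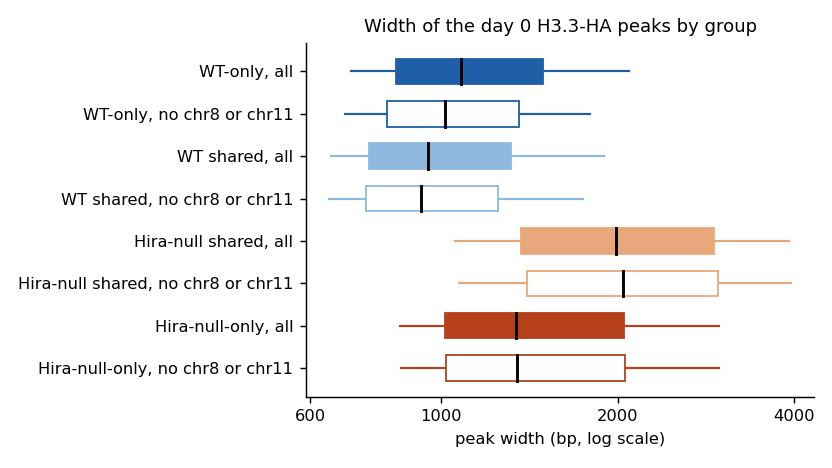
Width (bp, log scale) of the peaks of each group: box from the lower to the upper quartile, line inside at the median, whiskers from the 10th to the 90th percentile. Filled boxes hold all chromosomes and open boxes leave out chromosomes 8 and 11; the Hira-null shared peaks are the widest, with a median of 1984 bp.

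Most shared sites were a narrow WT peak inside a broad Hira-null peak. In 5349 cases 1 WT peak met exactly 1 Hira-null peak that met no other WT peak. In these pairs the median widths were 950 bp in WT and 1918 bp in Hira-null cells, the Hira-null peak was wider in 87% of pairs, and the WT peak lay wholly inside it in 77.1%. The median ratio of widths was 1.86, with quartiles of 1.3 and 2.84, and it was 1.96 without chromosomes 8 and 11. A further 391 Hira-null peaks held 2 or more WT peaks, up to 5, and 45 WT peaks met 2 or more Hira-null peaks.

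The width difference was larger where the sequence was repeated. Pairs whose WT window was repeated numbered 1731, with median widths of 836 bp in WT and 2818 bp in Hira-null cells, a median ratio of 3.09, and the Hira-null peak wider in 99.1%. In the 1714 pairs whose WT window had under 10% of such words, called non-repeated here, the medians were 1135 and 1484 bp, the median ratio was 1.31 and the Hira-null peak was wider in 70.4%. Peak widths depend on depth and on the caller, and their part in this difference was not tested.

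By this measure 1.24% of WT-only peaks were repeated, against 33.5% of WT shared, 33.7% of Hira-null shared and 40% of Hira-null-only peaks, and 9.06% of 19677 windows tiled across the genome. Without chromosomes 8 and 11 the shares were 1.44%, 35.0%, 35.0% and 39.8%, and 9.32% for the genome. WT-only peaks were thus below the genome level and the other groups above it. Among Hira-null-only peaks the share climbed with width, from 18.6% of those under 1 kb to 88.9% of the 280 peaks of 4 kb or more. Among WT shared peaks it went the other way, from 44.0% under 1 kb to 0 of 74 peaks of 4 kb or more. Within 1 class the contrast was similar, with 44.5% of distal intergenic Hira-null-only peaks and 2.23% of distal intergenic WT-only peaks repeated.

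Sorted the other way round, 205 repeated WT peaks lacked a Hira-null peak and 2078 had one, so that 8.98% (7.84 to 10.2) lacked one, whereas 87.3% (86.8 to 87.8) of the non-repeated WT peaks did. Of the repeated Hira-null peaks 70.9% lacked a WT peak, and of the non-repeated ones 60.1%. Most repeated WT peaks therefore had a Hira-null counterpart, while most repeated Hira-null peaks had no WT counterpart. Leaving out chromosomes 8 and 11 gave 8.84%, 86.4%, 71.2% and 62.0% for these 4 shares.

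Hira-null-only peaks in non-repeated sequence numbered 2769 and had a median width of 1114 bp, next to 1113 bp for the 13737 WT-only peaks in such sequence. The medians were 1115 and 1047 bp with chromosomes 8 and 11 left out. In repeated sequence the medians were 2041 bp for the 4757 Hira-null-only and 826 bp for the 205 WT-only peaks. The width difference between the unshared peaks was thus large in repeated and small in non-repeated sequence.

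The base composition of the central windows differed less. Median GC was 45.3% in WT-only, 44.8% in WT shared, 44.5% in Hira-null shared and 45.1% in Hira-null-only peaks, against 41.6% in genome windows. The median ratio of observed to expected CpG was 0.20 in WT-only and 0.32 in Hira-null-only peaks, against 0.16 in the genome. Runs of 4 units of the telomere repeat, a sequence known to carry H3.3 through ATRX, were found in 7 WT-only, 1 WT shared, 2 Hira-null shared and 3 Hira-null-only peaks, of 589 such places in mm9.

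The genomic class of the peak midpoint separated the WT-only peaks from all others. Distal intergenic sequence held 33.7% (32.9 to 34.4) of WT-only peaks, 68.0% (66.8 to 69.2) of WT shared, 68.8% (67.6 to 70.0) of Hira-null shared and 71.6% (70.8 to 72.5) of Hira-null-only peaks, and it made up 57.4% of the genome. Hira-null-only peaks thus exceeded WT-only peaks by 38.0 percentage points in this class, and by 36.3 points without chromosomes 8 and 11. Introns held 46.3% of WT-only and 23.6% of Hira-null-only peaks, with 35.4% of the genome. Promoters, the 3 kb upstream of a TSS, held 10.4% (9.92 to 10.9) of WT-only peaks, 2.26% of WT shared, 2.24% of Hira-null shared and 1.62% (1.4 to 1.87) of Hira-null-only peaks, and are 2.56% of the genome. Outside chromosomes 8 and 11 the promoter shares were 10.7% of WT-only and 1.57% of Hira-null-only peaks. Read by class, 92.5% of WT promoter peaks, 83.5% of WT intron peaks and 56.9% of WT distal intergenic peaks had no Hira-null peak, where 72.7% of all WT peaks had none. Among Hira-null peaks the share without a WT peak was 59.8% in promoters, 66.5% in introns and 68.1% in distal intergenic sequence.

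**Figure D3:**
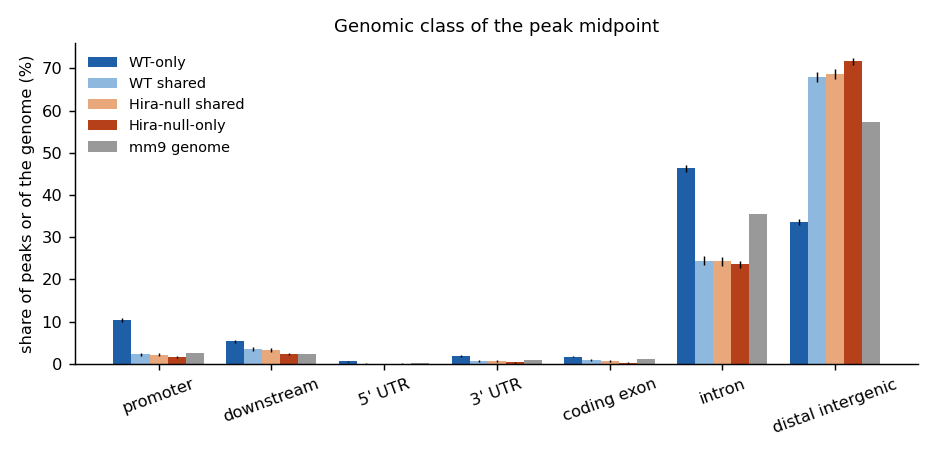
Share (%) of the peak midpoints of each group in 7 genomic classes, with exact binomial 95% intervals, beside the share of the mm9 genome in grey. WT-only peaks exceed the genome share in promoters and introns and fall below it in distal intergenic sequence, where the other 3 groups exceed it.

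Around gene starts only the WT-only peaks formed a crest. Their midpoints were densest between 1000 and 500 bp upstream of the TSS, with 32.9 per 1000 peaks in that 500 bp bin, and dropped to 7.75 in the bin just downstream of the TSS. In the same upstream bin the values were 4.19 for WT shared and 2.52 for Hira-null-only peaks. In the bin just downstream they were 1.29 and 0.59. Within 1 kb of a TSS lay 6.88% of WT-only, 0.95% of WT shared and 0.57% of Hira-null-only peaks. Within 1 kb of a gene end lay 4.85%, 2.29% and 1.14%. Along gene bodies cut into 10 equal parts, 13.3% of the WT-only peaks in genes fell in the first part, against 7.55% of WT shared and 8.19% of Hira-null-only peaks. A GC content of 50% with an observed to expected CpG ratio of 0.6 was reached by 4.26% of WT-only, 1.43% of WT shared, 1.54% of Hira-null shared and 4.66% of Hira-null-only promoter windows, which lie upstream of the TSS. The 1 kb windows centred on the TSSs themselves reached it in 44.2%.

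**Figure D4:**
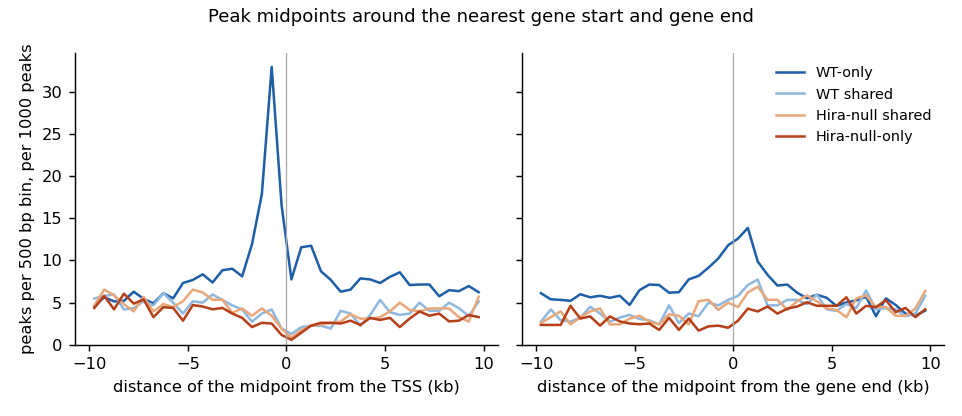
Peak midpoints per 500 bp bin and per 1000 peaks of a group, by distance in kb from the nearest TSS (left) and from the nearest gene end (right), with negative values upstream. WT-only peaks reach 32.9 just upstream of the TSS, and Hira-null-only peaks stay under 7 at every distance shown.

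The density of peaks along the genome differed on a few chromosomes. Chromosome 11 held 23.7 WT peaks per Mb and chromosome 8 held 12.6, where the other 17 autosomes held 6.67 to 10.1. In the Hira-null list these chromosomes held 7.04 and 5.94 per Mb, within the 5.92 to 8.94 of the other autosomes. The excess was in WT-only peaks, with 20.1 per Mb on chromosome 11 and 9.93 on chromosome 8 against 4.51 to 7.4 elsewhere, while WT shared peaks had 3.55 and 2.63 against 1.96 to 3.2. This is why values without these chromosomes are given. Only 0.56% of the WT-only peaks on chromosomes 8 and 11 were repeated, and 1.36% of those on the other autosomes, so repeated sequence was rare in both.

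Chromosome X went the opposite way. It held 157 WT peaks, of which 29 were WT-only, and 615 Hira-null peaks, of which 491 were Hira-null-only. In density this was 0.17 WT-only and 2.95 Hira-null-only peaks per Mb, against medians of 5.75 and 4.63 on the 17 autosomes. Of the Hira-null-only peaks on X, 73.7% (69.6 to 77.6) were repeated, against 38.2% (37.3 to 39.2) on those autosomes. Of the 128 WT shared peaks on X, 92.2% were repeated. The number of X and autosome copies in each line was not measured here, so its part in these densities was not tested.

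**Figure D5:**
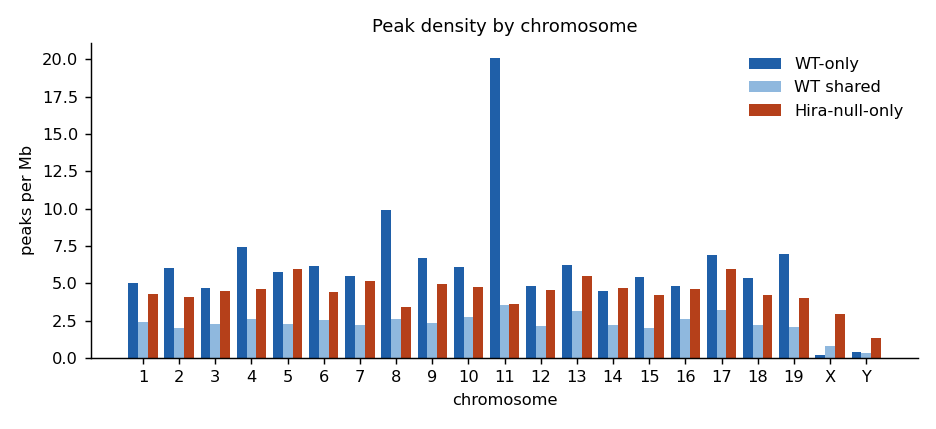
WT-only, WT shared and Hira-null-only peaks per Mb of each chromosome. WT-only peaks stand at 20.1 per Mb on chromosome 11 and 9.93 on chromosome 8, and chromosome X has 0.17 WT-only and 2.95 Hira-null-only peaks per Mb.

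The highest-scoring unshared peak of each genotype lay in a tandem array, a short unit repeated head to tail. The WT peak, with a score of 2043 and 2663 bp wide, was in an intron of Akap9, which encodes an A-kinase anchor protein of the centrosome. The Hira-null peak, with a score of 1149 and 3835 bp wide, was distal intergenic, 9.87 kb from the nearest TSS, that of Ctsc, the gene of cathepsin C. Their middle 200 bases are shown because the repeated unit can be read in them, with capitals on bases that fall in a 30-base word present 10 or more times in mm9.
Highest-scoring WT-only peak, chr5:4053286-4053485, plus strand: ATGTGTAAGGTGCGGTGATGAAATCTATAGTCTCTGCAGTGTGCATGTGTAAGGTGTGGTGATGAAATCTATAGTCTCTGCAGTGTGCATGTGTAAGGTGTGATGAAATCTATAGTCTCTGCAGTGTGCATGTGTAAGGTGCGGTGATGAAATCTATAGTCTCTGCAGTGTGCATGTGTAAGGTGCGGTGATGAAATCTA
Highest-scoring Hira-null-only peak, chr7:95416622-95416821, plus strand: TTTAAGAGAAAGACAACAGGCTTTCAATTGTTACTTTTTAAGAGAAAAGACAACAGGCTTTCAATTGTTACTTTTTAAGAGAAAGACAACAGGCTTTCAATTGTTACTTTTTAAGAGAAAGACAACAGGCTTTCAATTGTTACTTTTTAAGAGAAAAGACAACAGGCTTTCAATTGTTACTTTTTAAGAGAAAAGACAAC

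All 200 bases of both windows were in such words, with up to 41 copies of a word in the first and 83 in the second. The WT example does not stand for its group, since 1.24% of WT-only peaks were centred on repeated sequence. How reads with several matches were placed is not known and bears on both arrays. Other strong WT-only peaks lay on chromosome 4 over the predicted genes Gm13242 (score 2007), Gm13247 (score 1638) and Gm13251 (score 1616, 9796 bp wide), in a region with many near-identical genes where reads can be split between copies. The next Hira-null-only peak was the 6311 bp peak in an intron of Pros1, with a score of 904, that held the printed copy of element A. The widest WT-only peak covered 10370 bp on chromosome 8 and touched Il34 and Sf3b3, which encode a cytokine and a splicing factor. The widest WT shared peak covered 12142 bp on chromosome 11 at Npm1, the gene of nucleophosmin, and its Hira-null partner 10113 bp. Outside chromosomes 8 and 11 the widest WT-only peak was the 9796 bp peak at Gm13251. The widest WT shared peak there covered 10321 bp on chromosome 17, at Gm3448 and Gm3435. Another strong shared WT peak, with a score of 1254 against 561 for its Hira-null partner, touched Eif4a2, a translation initiation helicase, and Rfc4, a clamp loader subunit.

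Each gene was given a window that reached 10 kb ahead of its TSS and 200 bp beyond its last base. Of 22367 protein-coding genes, 4710 (21.1%) had a WT peak and no Hira-null peak in the window, and 4704 of these had a WT-only peak. The reverse, a Hira-null peak and no WT peak, was found for 1413 genes (6.32%). Both lists had peaks with shared sequence at 1893 genes (8.46%) and at separate places at 917 (4.10%), and 13434 genes (60.1%) had none. Without chromosomes 8 and 11 3753 of 19632 genes had WT peaks alone and 1310 (6.67%) had Hira-null peaks alone. Gene windows held 71.4% of WT-only peaks, 37.1% of WT shared and 33.5% of Hira-null-only peaks. The median window was 35.1 kb for genes with WT peaks alone and 19.7 kb for genes with no peak. The part of window length in the shares of the gene lists below was not tested.

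The genes with the largest excess of WT over Hira-null covered length were on chromosomes 11 and 8. The window of 1700081L11Rik had 43 WT peaks over 64.7 kb and no Hira-null peak. Cnot1, the scaffold of the CCR4-NOT deadenylase, had 25 WT peaks over 45.6 kb, Taok1, a kinase, had 28 over 44.7 kb and Npepps, an aminopeptidase, had 20 over 44.4 kb, all with no Hira-null peak. In Ncor1, a nuclear receptor corepressor, 42 WT peaks covered 61.2 kb, and 3 Hira-null peaks covered 5.46 kb. Ranbp17, Pitpnc1 and Usp34 had 41, 22 and 35 WT peaks and 1 Hira-null peak each, and Chd9 had 36 and 3. The model of Gm20388 spans over 4 Mb and holds other genes, with 60 WT and 46 Hira-null peaks.

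Outside chromosomes 8 and 11 the 5 largest WT excesses were found at Macf1, Tet1, Jarid2, Trip12 and Myst4. Tet1, which encodes a 5-methylcytosine dioxygenase, had 24 WT peaks over 34.1 kb, 32.6% of its window, and 2 Hira-null peaks over 1.99 kb. Jarid2, a Polycomb repressive complex 2 partner, had 35 WT peaks over 41.6 kb and 4 Hira-null peaks over 9.88 kb. Trip12, a ubiquitin ligase, had 25 WT peaks over 25.9 kb and no Hira-null peak. Myst4, a histone acetyltransferase, had 18 WT and 2 Hira-null peaks, and Macf1, a linker of actin and microtubules, had 33 and 4.

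The excess of Hira-null over WT covered length was smaller, and it lay mostly in very long genes. Ctbp2, a transcriptional corepressor, had 10 Hira-null peaks over 46.7 kb and 16 WT peaks over 17.7 kb. Fgfr2, an FGF receptor, has a window of 3019 kb in this annotation that overlaps Ctbp2, so that its 20 Hira-null peaks include peaks of Ctbp2. Gpc6, a glypican, had 8 Hira-null peaks over 25.7 kb and 2 WT peaks over 2.92 kb in a window of 1064 kb. Fhit, known for lying at a fragile site, had 14 Hira-null and 6 WT peaks in 1622 kb, and Sntg1, a syntrophin, had 12 and 6 in 949 kb. Cep57l1 had 7 and 3, Sdk1 had 9 and 1, Pdzrn4 had 5 and 3, and Hs6st3 had 8 and 2. Cntn5, a contactin of neurons, was the member of this ranking without a WT peak, with 7 Hira-null peaks over 13.8 kb.

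The genes with the most length covered in both lists were mostly in gene clusters on chromosomes 4 and 17. On chromosome 4 they were 2610305D13Rik (18.0 kb in both), Gm13242 (14.3 kb) and Zfp600 (11.8 kb), and on chromosome 17 2210404J11Rik (13.8 kb), Tcte3 (10.6 kb), Gm3435 (9.44 kb) and Phf10 (9.25 kb), which lie next to each other. The others were Etl4 (11.6 kb), and Fgfr2 and Ctbp2 (12.1 and 10.3 kb). Several of these belong to families of near-identical copies, so that reads may be split between members.

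Of 14 genes for H3.3 and its chaperones and remodellers, 8 (57.1%) had WT peaks alone, 3 had Hira-null peaks alone and 2 had both, where 21.1% and 6.32% of all genes had WT or Hira-null peaks alone. Both lists had peaks with shared sequence at 8.46% of all genes and at separate places at 4.10%. The median window of the 14 genes was 41.8 kb, against 25.6 kb for all genes. H3f3b and H3f3a, the genes that encode H3.3, had 6 WT peaks over 8.50 kb and 3 over 5.22 kb, and no Hira-null peak. Whether the HA tag sits in either gene is not given in the sources used here. Chd1 had 4 WT peaks, Nasp had 6, and Chd2 had 12 and 1 Hira-null peak.

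Pluripotency genes carried mostly WT-only peaks. Of 23 genes of naive pluripotency, 14 (60.9%) had WT peaks alone, where 21.1% of all genes did, and 5 (21.7%) had both with shared sequence, where 8.46% of all genes did. None had Hira-null peaks alone and 4 had none. Outside chromosomes 8 and 11, 14 of 21 had WT peaks alone. Pou5f1, which encodes OCT4, had 4 WT peaks over 7.06 kb and no Hira-null peak. Nanog was different, with 3 WT peaks over 7.86 kb and 2 Hira-null peaks over 7.00 kb that shared 6.72 kb. Esrrb, an orphan nuclear receptor, had 11 WT and 4 Hira-null peaks, Zfp42, which encodes REX1, had 8 and 2, Tdgf1, a Nodal coreceptor, had 5 and 1, and Dppa5a had 5 and 0, with 1 of the 5 meeting a Hira-null peak outside the window. The 23 windows together held 56 WT-only, 9 WT shared and 2 Hira-null-only peaks. The windows of all genes held 11804, 2302 and 3981, so WT-only peaks were the most numerous there too.

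Genes that become active on leaving the naive state and in gastrulation were close to the background. Of 18 such genes 4 (22.2%) had WT peaks alone, 2 had both and 12 had none. Lefty1, a Nodal antagonist, had 3 WT peaks and 1 Hira-null peak, Lefty2, Nodal and T had 1 WT peak each and no Hira-null peak, and Zic2 had 1 of each, overlapping.

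Among signalling genes, 6 of 13 of the LIF pathway (46.2%), 8 of 19 of FGF and ERK signalling (42.1%) and 8 of 16 of the Wnt pathway (50%) had WT peaks alone, and 1, 0 and 0 had Hira-null peaks alone. Over all genes these shares were 21.1% and 6.32%. The median windows of the 3 lists were 42.05, 43.74 and 41.25 kb, against 25.63 kb for all genes. Gab1, an adaptor, had 8 WT peaks over 17.0 kb, Socs3, a feedback inhibitor of STAT3, had 2 over 5.96 kb, and Jak2 had 4 over 4.26 kb, with no Hira-null peak at any of them. Il6st, the gp130 receptor subunit, had 1 peak in each list. Fgfr1 and Map2k1 had 5 and 6 WT peaks and no Hira-null peak, while Etv5, an ETS factor, had 9 WT and 8 Hira-null peaks. Tcf7l1, the main TCF repressor in mESCs, had 7 WT peaks and Gsk3b had 5, with no Hira-null peak. LIF and FGF genes include several on chromosomes 8 and 11, and without them 3 of 9 and 5 of 16 had WT peaks alone, where 3753 of 19632 genes did.

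Lists of chromatin genes are to be read against the 21.1% of all genes with WT peaks alone, which the DNA methylation and telomere lists did not exceed. Both genotypes had peaks with shared sequence at 8.46% of all genes and at separate places at 4.10%. The lists in this paragraph had longer windows than all genes, whose median was 25.6 kb. Their medians ran from 32.2 kb for telomere genes to 93.2 kb for chromatin remodelling genes. Of 20 Polycomb genes 6 (30%) had WT peaks alone, or 4 of 14 outside chromosomes 8 and 11, and 9 had both, among them Mtf2 with 15 WT and 2 Hira-null peaks and Aebp2 with 10 and 1, and Suz12, a core subunit, had 14 WT peaks over 28.8 kb and no Hira-null peak. Of 15 DNA methylation genes 3 (20%) had WT peaks alone, Tet2 with 10 over 13.9 kb among them, and Dnmt3b and Tet3 had 1 peak in each list that overlapped. Of 15 genes for heterochromatin and silencing of endogenous retroviruses 5 (33.3%) had WT peaks alone and 7 had both. Cbx1, which encodes HP1 beta, had 8 WT peaks and no Hira-null peak, Cbx5, which encodes HP1 alpha, had 9 and 1, and Morc3 had 2 and 3. Of 20 chromatin remodelling genes 8 (40%) had WT peaks alone, such as Kdm5b with 8 and Smarcc1 with 6, and none had Hira-null peaks alone. Of 11 telomere genes 1 (9.09%) had WT peaks alone and 3 had both, among them Terf1 with 3 WT peaks and 1 Hira-null peak.

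The replication-dependent histone genes, which include those of H3.1 and H3.2, had the highest share of WT peaks alone among the 25 lists. WT peaks alone were found at 50 of 67 (74.6%), both at 3 and Hira-null peaks alone at none. Of all genes, 21.1% had WT peaks alone and 6.32% Hira-null peaks alone, and both were found with shared sequence at 8.46% and at separate places at 4.10%. The windows of these short, clustered genes overlap, so peaks count for several genes. Counted once, the windows held 42 WT-only, 1 WT shared, 1 Hira-null shared and 2 Hira-null-only peaks in 0.44 Mb. Hist1h2ah, for example, had 4 WT peaks over 4.75 kb and Hist1h3d had 3 over 3.92 kb, with no Hira-null peak.

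Other genes active in every cell type had a high share of WT peaks too. Of 79 ribosomal protein genes 38 (48.1%) had WT peaks alone, against 21.1% of all genes. Both lists had peaks with shared sequence at 10 of them (12.7%) and at separate places at 4 (5.06%), against 8.46% and 4.10%, and 1 had Hira-null peaks alone. Of 20 cell cycle genes 11 (55.0%) had WT peaks alone, with 8 at Mdm2, while Ccnd3 had 9 WT and 4 Hira-null peaks. Of 21 genes of central metabolism and the cytoskeleton 7 (33.3%) had WT peaks alone and 11 had both, the highest share with both of any list. Shared sequence was present at 10 of these genes (47.6%) and separate places at 1 (4.76%), against 8.46% and 4.10% of all genes. At Ldha, the lactate dehydrogenase gene, 2 WT peaks covered 6.22 kb and 1 Hira-null peak 6.02 kb, with 4.71 kb in both. At Hsp90ab1, a heat shock protein gene, the lengths were 4.68 and 4.98 kb, and at Pkm2, a pyruvate kinase gene, 11 WT peaks covered 9.81 kb and 2 Hira-null peaks 5.56 kb.

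Lists of lineage genes fell on both sides of the level of all genes, of which 60.1% had no peak and 21.1% had WT peaks alone. For WT peaks alone the cardiac and neural lists were above that level, and the others of this paragraph below it. The lower shares were 7.69% for Hox, 7.14% for endoderm and blood, 6.67% for germline, 0% for 2-cell stage and 13.8% for imprinted genes. Of all genes, 8.46% had both with shared sequence, 4.10% had both at separate places and 6.32% had Hira-null peaks alone. Of 21 cardiac transcription factor genes 6 (28.6%) had WT peaks alone, 1 had both, 1 had Hira-null peaks alone and 13 (61.9%) had none. Tead1 had 5 WT peaks and no Hira-null peak, Mef2a had 2 in each list at separate places, and Meis1 and Myocd, both on chromosome 11, had 1 WT peak each. Among 39 Hox genes 34 had none. Of 14 endoderm and blood genes 11 had none, and Cdh5 had 1 Hira-null peak and no WT peak. Of 15 germline genes 11 had none, and of 9 genes of the 2-cell stage 6 had none, with Zscan4b at 1 WT and 2 Hira-null peaks. Of 29 imprinted genes 4 had WT peaks alone, 7 (24.1%) had both at separate places, against 4.10% of all genes, and 15 (51.7%) had none. Inpp5f had 1 WT-only and 4 Hira-null-only peaks, and Grb10 and Sgce had 4 and 5 WT-only peaks and 1 Hira-null-only peak each. Of 18 neural genes 7 (38.9%) had WT peaks alone, 6 had both and 5 (27.8%) had none, in windows with a median of 146.5 kb against 25.6 kb for all genes. Of the 6 neural genes with the most covered length, 5 were very long with more Hira-null than WT length. The other was Tubb3, a tubulin gene with a window of 20.8 kb, with 1 WT peak over 5.93 kb and no Hira-null peak. Csmd1 had 6 Hira-null peaks over 12.5 kb and 1 WT peak over 2.01 kb, Lrp1b had 6 and 2, Dlg2 had 6 and 3, and Cntnap2 had 5 of each, over 11.4 kb in Hira-null against 4.80 kb in WT.

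Chemosensory receptor genes showed the reverse of the usual order. Of 1113 olfactory receptor genes 9 (0.81%) had WT peaks alone and 42 (3.77%) had Hira-null peaks alone, and of 321 vomeronasal receptor genes 2 (0.62%) had WT peaks alone and 23 (7.17%) had Hira-null peaks alone. Against 21.1% and 6.32% of all genes, WT peaks alone were rare in both families, and Hira-null peaks alone were below the background in olfactory and near it in vomeronasal receptor genes. No peak of either list was found at 92.9% of olfactory and 87.9% of vomeronasal receptor genes. Their median windows were 11.2 and 11.3 kb, against 25.6 kb for all genes, and the part of window length in these shares was not tested. Counted once, the vomeronasal windows held 3 WT-only and 36 Hira-null-only peaks, and the olfactory windows 8 and 49. Vmn2r35 had 5 Hira-null peaks over 13.7 kb and no WT peak, and Olfr761 had 2 over 5.79 kb and no WT peak. Genes with a Zfp name, a large family that includes many KRAB repressors of retroviral repeats, had Hira-null peaks alone at 33 of 367 (8.99%) and WT peaks alone at 90 (24.5%), both slightly above the background. Zfp808 had 6 peaks in each list, which covered 6.50 kb in WT and 19.7 kb in the Hira-null list.

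The day 15 lists of the same genotypes gave a further view of the groups. WT-only peaks overlapped a WT day 15 peak in 31.9% (31.1 to 32.6) and a Hira-null day 15 peak in 4.27%. The first value was 24.8% without chromosomes 8 and 11. WT shared peaks did so in 9.41% and 12.8%, and Hira-null-only peaks in 1.72% and 7.30%. The day 15 lists differ in size, with 27272 WT and 7332 Hira-null peaks, which bears on these shares. In the repeated peaks the overlap with Hira-null day 15 peaks was 2.94% for Hira-null-only peaks, and in the non-repeated ones 11.8%.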

How the data were processed

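Native ChIP-seq with an HA antibody was done by the authors in WT and Hira-null mESCs, with 1 ChIP and 1 input library for each genotype and day. According to the methods and the submitters' processing notes, the authors aligned paired-end reads to mm9 with Bowtie, removed duplicates with Samtools and called peaks with MACS 1.4.2 at default settings. Besides the peak position, the deposited files hold the score of the caller, which is 10 times the negative log10 of its p-value. Whether the input served as control is not given in the sources used here, no file of the input libraries was used, and read depth is unknown.

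Lists were split by overlap of at least 1 bp, with the same counts as bedtools 2.31.1. Peaks were placed by midpoint in promoter (3 kb), downstream (3 kb), 5' UTR, 3' UTR, coding exon, intron or distal intergenic sequence, in this order, with GENCODE mouse M1 on NCBIM37 (22367 protein-coding genes). Gene windows ran from 10 kb upstream to 200 bp past the gene. Words of 30 bases were counted on both strands of mm9. Intervals are exact Clopper-Pearson intervals of 95%, or from order statistics for medians. Code was tested on simulated peaks. The code used numba 0.67.0, matplotlib 3.10.9, scipy 1.17.1, pandas 2.3.3 and numpy 2.4.6 under Python 3.11.15.

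Named peaks were the 5 with the highest score and the 5 widest of each group, of which some are given. Named genes were the 10 with the largest WT excess of covered length, the 10 with the largest Hira-null excess, the 10 most covered in both, the top 5 of each outside chromosomes 8 and 11, up to 6 members of each of 25 lists by covered length, and Hira. Members and lists were chosen with earlier results of these data known. Alternatives are given in the closing section, and those for repeated sequence were chosen after seeing the data.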

Additional observations from a re-analysis of the deposited data

How the results depend on the processing

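The 3 differences between Hira-null-only and WT-only peaks, in width, distal intergenic share and repeated windows, stayed positive in every alternative run, but the order of the WT and Hira-null unshared shares turned round in 3 of the 8 (50% covered, scores of 100 or more, same number of peaks). Non-repeated sequence taken alone was not among these alternatives. There the median widths were 1114 bp for Hira-null-only and 1113 bp for WT-only peaks, or 1115 and 1047 bp without chromosomes 8 and 11. No result has a test. The share of WT peaks without a Hira-null peak (72.7%) became 73.81% when at least 50% of a peak had to be covered, 70.84% with the other list widened by 1 kb, 73.92% at scores of 100 or more, 71.34% with the same number of highest-scoring peaks, 75.57% with every peak set to 1 kb, 71.68% with neighbours merged and 70.16% without chromosomes 8 and 11. In the same order, the share of Hira-null peaks without a WT peak (67.2%) became 82.22%, 63.94%, 81.3%, 72.8%, 69.5%, 64.1% and 68.51%. The median width of Hira-null-only minus WT-only peaks (260 bp) became 434 bp with 50% covered, 466.5 bp at scores of 100 or more, 186 bp with the same number of peaks, 200 bp when merged and 333 bp without chromosomes 8 and 11. The distal intergenic difference (38.0 points) became 36.72 points at scores of 100 or more, 36.78 with peaks of 1 kb, 34.32 with promoter and downstream of 1 kb, and 36.28 without chromosomes 8 and 11. The 4704 genes with a WT-only and no Hira-null peak became 2420 at scores of 100 or more. For the difference in repeated windows (38.7 points), settings chosen after seeing the data gave 27.34 points at 100 copies, 51.95 at scores of 100 or more, 42.22 in distal intergenic peaks and 16.71 in peaks under 1 kb. The cause of these shifts was not tested. No paired analysis was possible because each genotype had 1 library and no result comes from a test. Scores and widths grow with depth, which is unknown, and repeated copies depend on how reads with several matches were placed, so neither can be told apart from genotype here.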
